A study of Chlamydomonas reinhardtii with 15 samples.

Results

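LCI1 (locus CHLRE_03g162800v5) is a low-CO2 inducible gene of the green alga Chlamydomonas reinhardtii. It was followed through the probe GT_Chlamydomonas_specific_014724, which carries transcript number 55019 and is 1 of the 16283 probes tested. The gene was chosen by its own deposited signals, namely its levels in the 5 groups and the differences between replicates of 1 group, so its levels and differences are given as a description, without a test. The expression data come from 15 cultures of 4A+, a wild-type strain of the 137c background that grew in the light with acetate (mixotrophically). For 2 h, the cultures received neutral red (NR) at 3 µM, tert-butylhydroperoxide (tBOOH) at 100 µM, DBMIB at 2 µM, 2(E)-hexenal (Hexenal) at 0.3 mM, or no chemical (control). Each group holds 3 cultures, described as independent biological replicates, and each culture gave 1 array, and precision is limited by the number of arrays. The control was a culture without chemical, and no solvent is named for it in the sources used here.

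When CO2 is scarce, Chlamydomonas builds a carbon concentrating mechanism, in which transport proteins carry inorganic carbon inward across the cell's membranes and carbonic anhydrases interconvert CO2 and bicarbonate. Rubisco, packed in the pyrenoid of the chloroplast, then fixes carbon at a raised CO2 level. LCI1 is a plasma membrane protein that takes part in the uptake of inorganic carbon, and its transcript is known to be scarce when CO2 is plentiful and abundant when CO2 is limiting. Among the chemicals, neutral red is a photosensitiser that forms singlet oxygen in the light, tBOOH is an organic hydroperoxide, DBMIB keeps the cytochrome b6f complex from oxidising plastoquinol, and 2(E)-hexenal is a reactive electrophile.

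LCI1 was lower in all 4 treated groups than in the control group, and its replicates spread widely in the NR, DBMIB and control groups. Levels are log2 signals of the probe as the authors deposited them, quantile-normalized between arrays. LCI1 had 10.61, 6.88 and 5.24 in NR replicates 1, 2 and 3, against 15.59, 12.35 and 10.84 in control replicates 1, 2 and 3. In both groups replicate 1 was the highest and replicate 3 the lowest, and the highest NR array lay only 0.23 below the lowest control array. LCI1 averaged 7.58 ± 2.75 in the NR group and 12.93 ± 2.43 in the control group (SD, n = 3 each), a log2 difference of -5.35, or 40.8-fold lower. Over all probes, 45.0% were called in this comparison and 21.3% were called lower, where a call is an adjusted p under 0.05 in limma's moderated test after Benjamini-Hochberg adjustment.

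LCI1 had 4.07, 4.09 and 4.08 in the tBOOH cultures, in replicate order. These 3 arrays nearly coincided, and the highest of them lay 6.75 below the lowest control array. The tBOOH mean was 4.08 ± 0.01 against 12.93 ± 2.43 in the control group (SD, n = 3 each), a log2 difference of -8.85 and 460-fold lower as measured, with LCI1 well above background on 2 of the 3 tBOOH arrays. In the comparison of tBOOH with control, 60.1% of all probes were called and 28.2% were called lower.

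In the DBMIB cultures LCI1 had 3.58, 3.67 and 7.15 in replicate order. Replicates 1 and 2 lay close together and replicate 3 stood well above them, though still 3.70 below the lowest control array. The DBMIB mean of 4.80 ± 2.03 was 8.13 log2 units below the control mean of 12.93 ± 2.43 (SD, n = 3 each). DBMIB changed the largest share of probes among the 4 treatments, with 61.9% called and 30.4% called lower. Without the high replicate 3, the DBMIB group lay -9.30 from the control group.

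In the Hexenal cultures LCI1 had 4.66, 3.98 and 4.61 in replicate order. All 3 were low and the highest lay 6.18 below the lowest control array. The Hexenal mean of 4.42 ± 0.38 stood at a log2 difference of -8.51 from the control mean of 12.93 ± 2.43 (SD, n = 3 each), or 364-fold lower. Under Hexenal, 57.3% of all probes were called and 25.7% were called lower.

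By mean level, LCI1 was highest in control, then NR, and low in DBMIB, Hexenal and tBOOH. The last 3 groups have no settled order, since each holds an array on which LCI1 was not well above background, and their medians of 3.67 (DBMIB), 4.61 (Hexenal) and 4.08 (tBOOH) rank otherwise than their means. The tBOOH and Hexenal ranges overlapped and both lay within the DBMIB range, and the highest DBMIB array lay above the 2 lower NR arrays. The NR and tBOOH arrays did not overlap, nor did the NR and Hexenal arrays, and every treated array lay below every control array. Without control replicate 1, the highest array of all, the differences from control were -4.02 for NR, -7.51 for tBOOH, -6.80 for DBMIB and -7.18 for Hexenal.

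**Figure D1:**
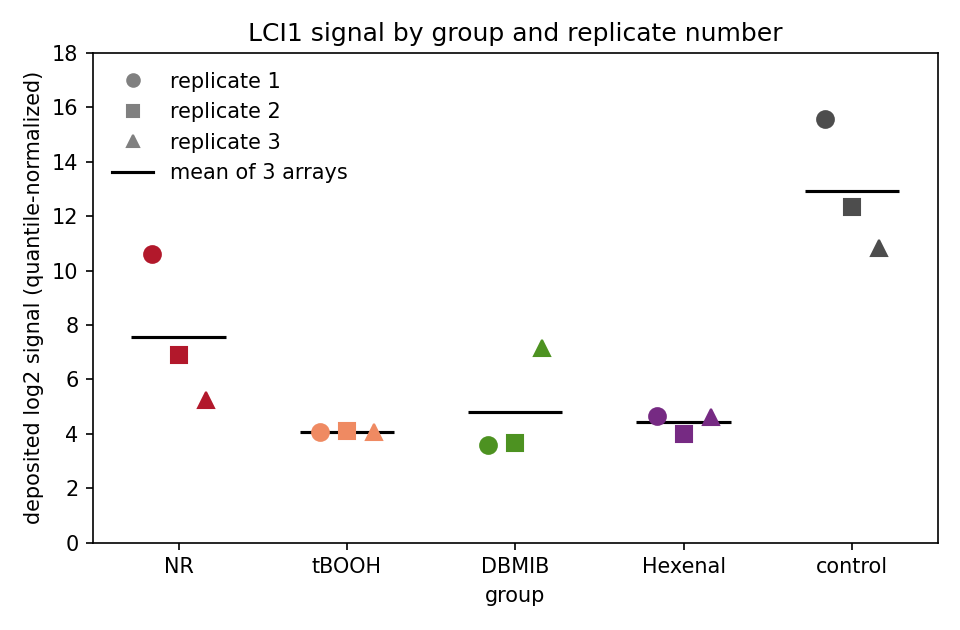
Deposited log2 signal of LCI1 (vertical axis, quantile-normalized) on each of the 15 arrays, by group along the horizontal axis, with the replicate number as the symbol and the group mean as a bar. The control arrays sit between 10.84 and 15.59, above all treated arrays, and replicate 1 is the highest in both the NR and the control group.

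Scanner signals of the 12 treated arrays show how close to background these levels were. Of all probes, between 72.7% (DBMIB replicate 2) and 89.8% (NR replicate 2) were well above background on an array. The probe has 2 spots on each array, and none of the LCI1 spots was saturated or had an outlier flag. In the NR cultures all 6 spots were well above background, with processed signals of 1920 and 1650 in replicate 1, 136 and 123 in replicate 2, and 42.1 and 49.3 in replicate 3. The 2 spots of an NR array thus lay close together while the arrays differed widely.

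With tBOOH, 4 of 6 spots were well above background, and the signals ran between 11.7 and 19.0. With DBMIB, 3 of 6 spots were, and the spots of replicate 3 read 109 and 103 while those of replicates 1 and 2 read between 4.68 and 15.1. With Hexenal, 4 of 6 spots were, with signals between 9.95 and 21.2. In each of these 3 groups LCI1 was well above background on 2 of 3 arrays, an array being counted from a share of 0.5 of its spots upward. The folds against control for these groups therefore rest on treated signals near the detection limit, and for the control arrays no scanner flags entered.

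**Figure D2:**
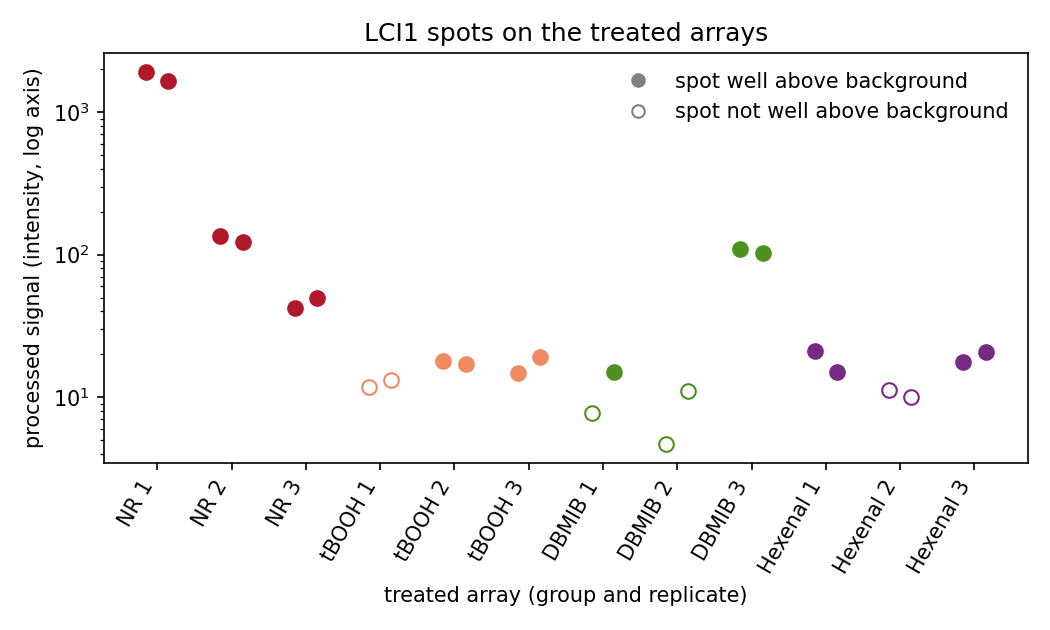
Processed signal (intensity, log axis) of the 2 LCI1 spots on each of the 12 treated arrays along the horizontal axis, filled where the scanner software marked the spot well above background and open where it did not. The NR spots run between 42.1 and 1920, and DBMIB replicate 3, at 109 and 103, stands apart from the other DBMIB arrays.

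The 4 treatments could also be compared with each other on the scanner signals, taken as log2 of the processed signal minus the 75th percentile of the array. On this scale LCI1 had 1.31, -2.44 and -3.94 in the NR cultures, against -5.45, -5.35 and -5.20 in the tBOOH cultures. The NR arrays lay above the tBOOH arrays, by 3.64 on average, or 12.5-fold. Against the Hexenal values of -4.88, -5.85 and -4.92, the NR mean was higher by 3.52, or 11.5-fold, without overlap. Against the DBMIB values of -5.41, -6.09 and -2.14, it was higher by 2.86, or 7.25-fold, and here the groups overlapped. Without NR replicate 1 the 3 differences were 2.14, 2.03 and 1.36 for tBOOH, Hexenal and DBMIB, in that order. With a normexp background correction on the median signals, which adds an offset of 50 to each signal, NR exceeded tBOOH by 1.55, Hexenal by 1.52 and DBMIB by 1.24. In these comparisons, 47.6% of all probes were called between NR and tBOOH, 43.9% between NR and Hexenal, and 57.1% between NR and DBMIB.

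Same-numbered NR and control cultures held their LCI1 levels in the same order. Set number by number, LCI1 in NR lay at -4.98, -5.47 and -5.60 from the control of the same number, for replicates 1, 2 and 3. These 3 differences spread by an SD of 0.33, far less than the SDs of 2.75 and 2.43 within the NR and control groups, and correspond to 31.6-, 44.4- and 48.6-fold lower levels. Taken the same way, the differences from control were -11.52, -8.26 and -6.76 for tBOOH, with an SD of 2.43. They were -12.01, -8.68 and -3.70 for DBMIB and -10.93, -8.37 and -6.23 for Hexenal, with SDs of 4.18 and 2.36. The tBOOH and Hexenal signals lay near background, so that the SD of these differences is close to that of the control levels alone (2.43).

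Wide spreads of this size were rare on the array. LCI1 was chosen partly by the differences between its replicates, so its ranks here describe that choice and are no separate result. The LCI1 range of 5.37 in the NR group was matched or exceeded by 6 of 16283 probes, LCI1 included, and that of 4.75 in the control group by 10. The DBMIB range of 3.56 was reached by 13 probes, the Hexenal range of 0.68 by 2897 and the tBOOH range of 0.02 by 16222. The median SD of all probes within a group lay between 0.19 and 0.26, so LCI1 varied among replicates more than a typical probe in the NR, DBMIB, Hexenal and control groups and less than a typical probe in the tBOOH group. The tBOOH signals lay near background, and on the scanner scale their SD was 0.13. Arrays of 1 group correlated with each other at 0.983 to 0.995 over all probes. The mean log2 signal of 6 spike-in features was 11.45, 11.94 and 12.08 in control replicates 1, 2 and 3, so control replicate 1, the highest for LCI1, was the lowest for the spike-ins. In NR replicates 1, 2 and 3 the spike-in mean was 11.93, 12.07 and 11.89, and replicate 3, the lowest for LCI1, was also the lowest for the spike-ins. What differed between cultures of the same group was not tested.

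The other genes of the pathway were taken from a list of 35 entries beside LCI1, put together from general knowledge of the carbon concentrating mechanism, Rubisco and photorespiration. Of these, 28 have a locus tag and 21 of the 28 have a probe of the specific class. The annotation used here gives no gene names for these loci, so each is identified by its locus tag alone. The list was chosen with earlier results of these data known, so its counts describe the list and are no independent evidence of a direction.

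Many of these loci were lower in treated cultures. With NR, 10 of the 21 fell, 1 rose and 10 were not called in limma's fit, against 45.0% of all probes called (21.3% lower, 23.7% higher), and the list had a median log2 difference of -1.42 beside 0.01 for all probes. With tBOOH, 13 fell and 2 rose, at a median of -2.04 beside 0.10 for all probes, of which 28.2% were called lower and 31.9% higher. With DBMIB, 15 fell and 2 rose (19 and 0 when arrays were centred on spike-in features), at a median of -1.67 beside 0.06 and background shares of 30.4% lower and 31.5% higher. With Hexenal, 11 fell and 1 rose, at a median of -1.33 beside 0.13 and background shares of 25.7% lower and 31.6% higher. The 4 comparisons share their control arrays. For the spike-in alternative, the deposited values, already quantile-normalized, were shifted array by array to centre them on 6 spike-in features. Of its calls over all probes, 41.4% were higher for NR, 42.7% for tBOOH, 24.2% for DBMIB and 36.7% for Hexenal. Without this shift the shares were 52.6%, 53.1%, 50.9% and 55.1%. The list counts for NR, tBOOH and Hexenal did not change.

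For NR and control, cultures of the same number deviated together, so the fit with the replicate number as a block is given beside this count. The labels do not state this pairing. It was read from these same arrays, so calls gained with the block are no separate support. Over all 15 arrays it called 13 of the 21 loci, 12 of them lower, and over the 6 NR and control arrays alone, a fit added after the data were seen, it called 17, of which 16 were lower. The loci gained in the 6-array fit were CHLRE_02g097800v5, CHLRE_04g222750v5, CHLRE_04g223300v5, CHLRE_06g309000v5, CHLRE_09g394473v5 and CHLRE_10g452800v5, with adjusted p between 0.000158 and 0.0351.

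5 of the 21 loci fell in all 4 treatments, namely CHLRE_04g223100v5, CHLRE_05g248400v5, CHLRE_06g307500v5, CHLRE_12g485050v5 and CHLRE_12g497300v5, while 11.4% of all probes were called lower in all 4. CHLRE_05g248400v5 had 10.44, 8.59 and 8.92 in NR cultures, 8.62, 8.46 and 8.82 in tBOOH cultures, 8.80, 9.02 and 10.21 in DBMIB cultures and 8.84, 8.26 and 8.42 in Hexenal cultures, against 15.99, 11.96 and 10.48 in control cultures. All 12 treated arrays lay below the 3 control arrays, and the control arrays spread at least as widely as those of LCI1. Its log2 differences from control were -3.49 for NR, -4.18 for tBOOH, -3.47 for DBMIB and -4.30 for Hexenal. In limma's fit the standard error was 0.96 and the adjusted p lay between 0.00136 and 0.00838. That fit pools the spread of all groups, and the SD was 2.85 in control but 0.18 in tBOOH cultures. The standard error and adjusted p thus understate the control spread. Without control replicate 1 the locus was still called in all 4, at -1.90, -2.59, -1.88 and -2.71 in the same order.

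CHLRE_04g223100v5 had 13.74, 12.94 and 13.98 in NR cultures, 12.96, 14.03 and 15.09 in tBOOH cultures, 10.47, 11.48 and 13.07 in DBMIB cultures and 10.24, 9.71 and 11.39 in Hexenal cultures, against 17.46, 16.20 and 15.91 in control cultures. No treated array reached the control range. It fell least with tBOOH (-2.50 ± 0.66 SE) and most with Hexenal (-6.08 ± 0.66 SE). Between treatments on the scanner scale, NR exceeded Hexenal by 3.07 (limma adjusted p 0.0024) for this locus.

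CHLRE_12g485050v5 fell by similar amounts throughout, at -2.33 for NR, -2.15 for tBOOH, -2.07 for DBMIB and -2.88 for Hexenal (SE 0.27 each). Its SDs within groups ran between 0.22 and 0.48, beside medians of 0.19 to 0.26 over all probes. CHLRE_12g497300v5 lay at -0.90, -0.97, -2.02 and -1.21 in the same order of treatments (SE 0.18 each). CHLRE_06g307500v5 lay at -2.52, -5.37, -3.38 and -3.31 (SE 0.90 each). Its fall under NR was called in 2 of 6 fits that each left out 1 array, and without control replicate 1 the difference was -1.83 with a limma adjusted p of 0.147.

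Where the spread over control replicates was wide, large differences could miss the threshold. For such loci the standard error, pooled over all groups, understates the control spread where treated arrays lie closer together. CHLRE_04g223300v5 had 11.32, 7.28 and 5.41 in NR cultures against 14.73, 10.34 and 8.31 in control cultures, a difference of -3.12 ± 1.49 SE that was not called (limma adjusted p 0.105). Replicate 1 was the highest and replicate 3 the lowest in both groups, and the groups overlapped. The same locus fell with tBOOH, where it had 4.51, 4.51 and 4.23 (-6.71, adjusted p 0.00121), and with DBMIB (-5.30, adjusted p 0.00627) and Hexenal (-5.10, adjusted p 0.00875), being well above background on 2 of 3 arrays in each of the last 2 groups. Without control replicate 1 its Hexenal difference was -3.30 with a limma adjusted p of 0.052, and its DBMIB difference was -3.50, still called.

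CHLRE_06g309000v5 had 13.69, 8.92 and 7.86 in NR cultures against 16.63, 12.38 and 11.11 in control cultures and was not called there (-3.22, limma adjusted p 0.0836). It fell with tBOOH (-6.26, adjusted p 0.00157) and DBMIB (-4.29, adjusted p 0.0177), though the DBMIB difference was -2.66 with an adjusted p of 0.107 without control replicate 1. CHLRE_02g097800v5 was called with tBOOH (-4.23, adjusted p 0.0175), with SDs of 4.14 in control and 0.31 in tBOOH cultures beside a pooled standard error of 1.41. Without control replicate 1 it lay at -1.92 with an adjusted p of 0.061. CHLRE_04g222750v5 was called in none of the 4 comparisons on the deposited scale, with differences between -1.91 and -1.33.

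CHLRE_10g452800v5 fell with tBOOH (-5.09 ± 0.73 SE, limma adjusted p 2.58e-05) and DBMIB (-2.65 ± 0.73 SE, adjusted p 0.00549), and lay at -1.53 with NR and -0.70 with Hexenal without a call. CHLRE_04g229300v5 fell with NR (-1.57), tBOOH (-2.60) and Hexenal (-1.82). CHLRE_10g436550v5 fell with NR (-1.41), DBMIB (-1.43) and Hexenal (-1.61).

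Other loci fell in fewer treatments. CHLRE_02g120100v5 had 14.77, 14.37 and 14.94 in tBOOH cultures against 17.58, 17.68 and 17.88 in control cultures, a difference of -3.02 ± 0.17 SE with a limma adjusted p of 3.10e-09, and it also fell with Hexenal (-1.01). CHLRE_03g168700v5 and CHLRE_16g663450v5 fell with tBOOH, both by 2.04 on the log2 scale, and with DBMIB, by 1.67 and 0.92. The fall of CHLRE_16g663450v5 with DBMIB lost its call without control replicate 1 (-0.65, limma adjusted p 0.0927). CHLRE_06g288700v5 (-0.88) and CHLRE_09g394473v5 (-1.54) fell with DBMIB. CHLRE_09g394473v5 lay at -1.42 with NR (limma adjusted p 0.0763, and 0.0196 with the replicate block over 6 arrays). Without control replicate 1, CHLRE_06g288700v5 lay at -0.57 and stayed past the threshold, while CHLRE_09g394473v5 lay at -1.18 with a limma adjusted p of 0.157 and was called in only 1 of the 6 fits without 1 array.

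4 loci rose in at least 1 treatment. CHLRE_02g096300v5 had 7.17, 6.18 and 5.83 in NR cultures and 5.98, 6.56 and 5.69 in Hexenal cultures, against 4.53, 4.72 and 4.65 in control cultures. It rose with NR (1.76, limma adjusted p 0.000182), Hexenal (1.44, adjusted p 0.000571) and DBMIB (0.77, adjusted p 0.0313), the last being called in 1 of 6 fits without 1 array and lost without control replicate 1 (0.72, adjusted p 0.0793). CHLRE_13g607350v5 rose with tBOOH (2.45) and fell with NR (-0.82), DBMIB (-1.63) and Hexenal (-0.80). CHLRE_09g405750v5 rose with tBOOH (0.96) and fell with NR (-1.17) and DBMIB (-1.02). Centred on spike-in features, the rise of CHLRE_02g096300v5 with DBMIB was 0.14 and that of CHLRE_04g223050v5 0.84, and neither was called. CHLRE_04g223050v5 rose with DBMIB (1.46) on the deposited scale and fell with NR (-1.39), and in the Hexenal cultures, where no array had it well above background, it was at least 5.44-fold lower than in control cultures, with measured means of 3.67 and 6.20 and a limma adjusted p of 3.94e-05. For that bound each Hexenal array contributed the probe's value or, if larger, the smallest signal that any well-detected probe had there.

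**Figure D3:**
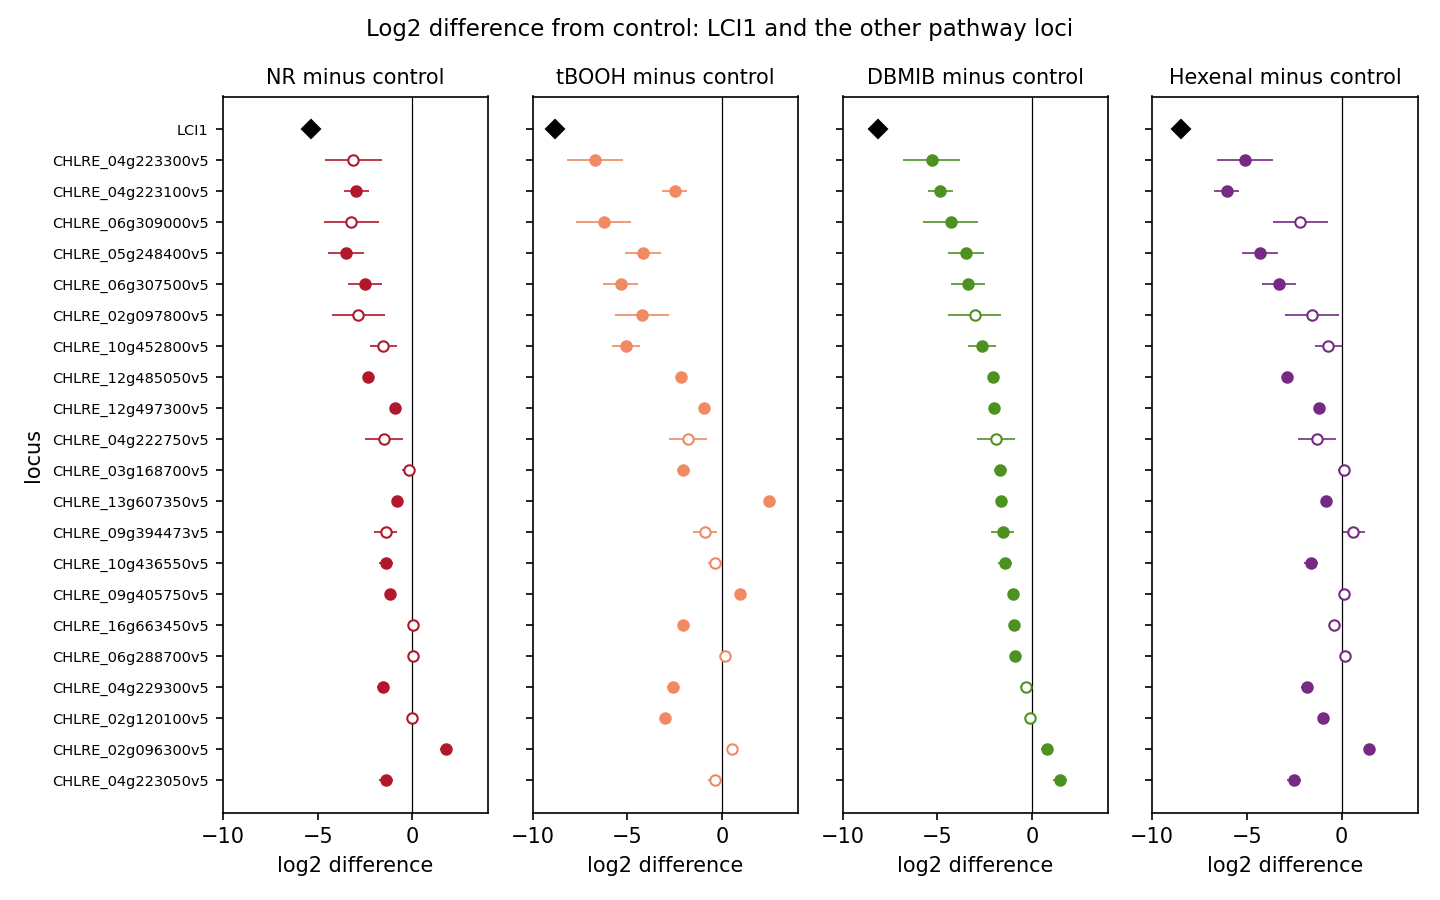
Log2 difference from control of LCI1 (black diamond, no test) and of the 21 other pathway loci, 1 panel per treatment, with the standard error of limma's fit as horizontal bars, filled where the locus was called and open where it was not. LCI1 lies at -5.35, -8.85, -8.13 and -8.51, and 10, 13, 15 and 11 of the other loci fell in the panels from left to right.

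Between treatments, the pathway loci differed from each other in both directions. In limma's fit NR exceeded tBOOH at 8 of the 21 loci and lay below it at 3, with a median difference of 0.71, while 24.2% of all probes were called higher in NR and 23.4% lower. NR exceeded DBMIB at 7 and lay below it at 3, with a median of 0.81 beside 28.1% higher and 29.0% lower among all probes. NR exceeded Hexenal at 3 and lay below it at 2, with a median of 0.23 beside 27.2% higher and 16.6% lower among all probes. Of the calls between NR and Hexenal over all probes, 62.1% were higher on this scale, beside 50.5% with deposited values or quantile normalization and 51.6% with normexp. Without NR replicate 1, 6 loci were called between NR and DBMIB in place of 10, and 8 between NR and Hexenal in place of 5, and without Hexenal replicate 1 NR and Hexenal differed at 3. CHLRE_10g452800v5 (3.44, adjusted p 0.00176) and CHLRE_16g663450v5 (2.14, adjusted p 0.000102) were among the loci higher in NR than in tBOOH. LCI1 itself was 3.64 higher in NR than in tBOOH on the same scale.

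Several pathway loci shared the replicate pattern of LCI1. Replicate 1 lay at least 2-fold above replicate 3 at 13 of the 21 loci in the NR group and at 11 in the control group, and at none of them at least 2-fold below it. Over all probes, 2.29% of NR values and 4.26% of control values had replicate 1 at least 2-fold above replicate 3, and 1.46% and 4.05% had it at least 2-fold below. At 9 of the 21 loci (42.9%) replicate 1 exceeded replicate 3 at least 2-fold in both groups, beside 0.559% of all probes (91 of 16283). These shares come from single arrays and have no replicate of their own.

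In the other groups the order was different. Replicate 1 lay at least 2-fold above replicate 3 at 2 loci with tBOOH, 0 with DBMIB and 2 with Hexenal, and at least 2-fold below it at 4, 6 and 1. The matching shares over all probes were 1.62%, 3.75% and 1.03% above and 2.16%, 4.48% and 1.97% below. LCI1 in the DBMIB group, where replicate 3 was 3.56 above replicate 1, ran the same way as the 6 DBMIB loci. Median differences of replicate 1 from replicate 3 over the 21 loci were 1.34 in NR, -0.01 in tBOOH, -0.31 in DBMIB, -0.07 in Hexenal and 1.03 in control.

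**Figure D4:**
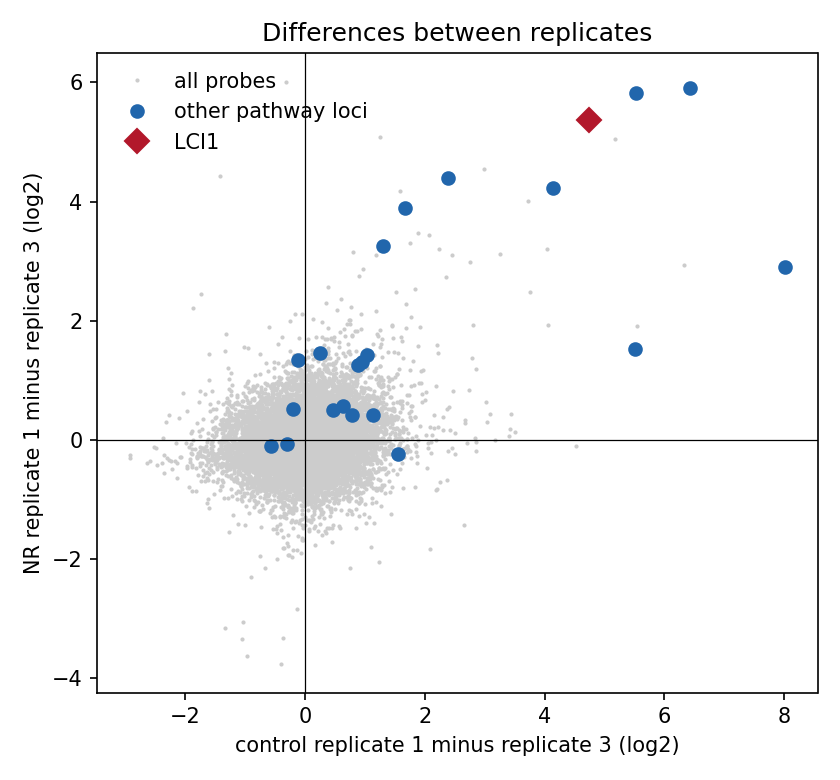
Log2 difference of replicate 1 from replicate 3 in the NR group (vertical axis) against the same difference in the control group (horizontal axis), 1 point per probe, with all probes in grey, the 21 other pathway loci in blue and LCI1 in red. LCI1 lies at 5.37 in NR and 4.75 in control, and 9 of the 21 blue points exceed 2-fold (a log2 difference of 1) on both axes.

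The genes whose levels most resembled those of LCI1 were ranked by Pearson correlation, as a description over arrays that share their groups. Over all 15 arrays and 6743 other probes of the specific class with a locus tag, the 5 highest were CHLRE_16g659200v5 (0.97), CHLRE_11g476325v5 (0.96), CHLRE_17g720400v5 (0.96), CHLRE_10g426050v5 (0.96) and CHLRE_09g410700v5 (0.95). None of the 5 is on the pathway list. CHLRE_10g426050v5 lay at log2 differences from control of -3.81 with NR, -6.62 with tBOOH, -4.99 with DBMIB and -6.88 with Hexenal, all smaller than those of LCI1. It had 11, 8.58 and 9.09 in NR cultures, 5.97, 6.80 and 7.47 in tBOOH cultures, 7.35, 7.32 and 10.46 in DBMIB cultures and 6.78, 6.03 and 6.66 in Hexenal cultures, against 16.57, 12.50 and 11.02 in control cultures. Its replicates followed those of LCI1 in the control group and, with replicate 3 on top, in the DBMIB group. Of the 21 pathway loci, 3 were among the 100 most similar of the 6743 probes, led by CHLRE_04g223300v5 (0.94).

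Over the 6 NR and control arrays, after the group means were taken away, the ranking used the 414 probes whose deviations had an SD of at least 0.5. The 5 highest were CHLRE_04g223300v5 (0.99), CHLRE_06g309000v5 (0.99), CHLRE_04g222750v5 (0.99), CHLRE_02g103300v5 (0.99) and CHLRE_01g009900v5 (0.99), and the first 3 are on the pathway list. CHLRE_02g103300v5 had only 3.46, 2.29 and 1.84 in NR cultures and 3.23, 2.36 and 2.10 in control cultures, below every LCI1 value. Of the 21 pathway loci, 12 were among the 100 most similar of these 414 probes. Those 100 are a sizeable part of the probes ranked, and pathway loci with a smaller SD were not ranked. CHLRE_04g222750v5 had 9.63, 6.75 and 5.41 in NR cultures against 11.25, 7.88 and 7.11 in control cultures, and, as for LCI1, replicate 1 was the highest and replicate 3 the lowest in both groups.

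The loci beside LCI1 in the gene order of a later assembly were looked up after the data were seen, 5 on each side, of which 6 have a probe. CHLRE_03g162850v5, the next locus after LCI1, fell in all 4 treatments, at -1.41 for NR, -1.09 for tBOOH, -1.93 for DBMIB and -1.17 for Hexenal, with limma adjusted p between 1.89e-05 and 0.00291. Its mean was 12.90 ± 0.03 in NR, 13.23 ± 0.39 in tBOOH, 12.38 ± 0.41 in DBMIB, 13.15 ± 0.47 in Hexenal and 14.32 ± 0.34 in control (SD, n = 3 each), without the wide spread of LCI1. CHLRE_03g162601v5 fell with tBOOH (-2.02, limma adjusted p 0.00115) and DBMIB (-1.35, adjusted p 0.0163), with means of 2.85 and 3.52 against 4.87 in control. CHLRE_03g162650v5 rose with tBOOH (1.33, limma adjusted p 0.00198), to a mean of 4.43 against 3.09 in control. CHLRE_03g163000v5 fell with NR (-0.62, limma adjusted p 0.0411), to a mean of 3.26 against 3.88 in control. These are low signals, near those at which LCI1 was close to background. Whether these loci were well above background was not looked up. CHLRE_03g162701v5 and CHLRE_03g162900v5 were called in none of the comparisons with control.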

How the data were processed

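Total RNA was hybridised with Cy3 to custom Agilent arrays, per the labels' protocols. The deposited table of the whole series holds the authors' log2 values for all 15 arrays. Its sorted columns are equal within 0.01 and each median is 6.953, so it is quantile-normalized; the sources used here do not state the authors' steps. It ranks probes as the mean log2 processed signal does on the 12 treated arrays (Spearman correlation 1). Scanner tables of the 12 treated arrays give the deposited processed signal intensity per spot. Scanner tables of the control arrays were not analysed here.

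Comparisons with control used the deposited log2 values of all 15 arrays in 1 fit. Each fit gives a probe 1 spread for all its groups. Where the control arrays spread more widely than the treated arrays, the standard error and adjusted p understate the control spread. Treatments were compared with each other on log2 processed intensity minus the 75th percentile of the array, without flagged spots. limma 3.58.1 under R 4.3.3 (lmFit, eBayes) was fitted to 16283 probes, with two-sided p-values, Benjamini-Hochberg adjustment and a threshold of 0.05. The 60 control features were left out, and no filter on dim probes was used. The model was also run on simulated data, with independent arrays and 1 spread per probe for all groups. That run does not cover loci whose groups spread unlike each other or whose replicates deviate together.

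Transcript numbers below 200000 were matched to locus tags of RefSeq assembly v5.5, a later build than the array's, for 6942 probes; no coordinates are given. Members and lists were chosen with earlier results of these data known. Named genes are LCI1, the pathway list, and the 5 probes most like LCI1 by each of 2 correlations; loci beside LCI1 were added after the data were seen. Same-numbered NR and control arrays deviated together from their group means (correlations 0.217, 0.141 and 0.205), so their numbers were taken as pairs. The labels do not say that a number marks a shared culture. For the other 6 comparisons at least 1 of the 3 correlations was 0.1 or lower. Of all 10 pairs of groups, 4 had all 3 correlations over 0.1. Among them was each pair of tBOOH, DBMIB and Hexenal, which were not compared with each other here. Alternatives left out each array, added a replicate block, centred on spike-in features, changed background correction or normalization, filtered dim probes, kept flagged spots, or used a trended robust spread.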

Additional observations from a re-analysis of the deposited data

Results flagged for a closer look

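At 3 pathway loci, treatments were called in opposite directions from control. The difference between the treatments in the same limma fit, on the deposited log2 values, is given for its size. Its call follows from the 2 opposite calls against the same control arrays and adds no separate support. CHLRE_04g223050v5 fell with NR and rose with DBMIB, a difference of NR minus DBMIB of -2.85 (adjusted p 1.5e-05). With arrays centred on spike-in features, its rise with DBMIB was 0.84 and was not called. CHLRE_13g607350v5 fell with NR and rose with tBOOH, a difference of NR minus tBOOH of -3.27 (adjusted p 9.05e-08). CHLRE_09g405750v5 did the same, with a difference of NR minus tBOOH of -2.13 (adjusted p 6.71e-07). Groups of 3 arrays were not searched for outlying arrays.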

How the results depend on the processing

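LCI1 lay below control in all 4 treatments under each alternative run. Since every treated array lay below every control array, leaving out 1 array could not reverse this direction. The replicate block leaves the differences of group means unchanged. These alternatives therefore show only how far the size of the difference moved. Leaving out 1 array at a time gave log2 differences from control between -6.87 and -4.02 for NR, -9.89 and -7.51 for tBOOH, -9.30 and -6.80 for DBMIB and -9.55 and -7.18 for Hexenal, and NR lay above tBOOH by 2.14 to 4.77, above DBMIB by 1.36 to 4.06 and above Hexenal by 2.03 to 4.65. With normexp on median signals and its added offset of 50, NR minus tBOOH was 1.55 and NR minus Hexenal 1.52. The processed LCI1 signals, between 11.7 and 19.0 with tBOOH and between 9.95 and 21.2 with Hexenal, lay below that offset. Such an offset brings log2 values of low signals closer together, and its share in these smaller differences was not tested. Leave-one-out counts of pathway loci called were 10 to 16 for NR, 14 to 15 for tBOOH, 13 to 18 for DBMIB, 11 to 13 for Hexenal, 9 to 12 for NR against tBOOH, 6 to 11 for NR against DBMIB and 3 to 8 for NR against Hexenal, where 6 and 8 came without NR replicate 1 and 3 without Hexenal replicate 1. Probes called ranged between 6004 and 7096 for NR, 8999 and 9404 for tBOOH, 9331 and 10033 for DBMIB, 8477 and 9003 for Hexenal, 6726 and 6968 for NR against tBOOH, 8190 and 9524 for NR against DBMIB, and 6025 and 6684 for NR against Hexenal. The replicate block over 6 arrays called 17 pathway loci for NR, and over 15 arrays 13; on the scanner scale it called 13 for NR against tBOOH and 6 against Hexenal, in place of 11 and 5. It changed no other count of loci. CHLRE_02g120100v5 (NR minus DBMIB -0.52) was 0.067 with deposited values, 0.046 with normexp and 0.083 with quantile normalization. Of 1617 values of single loci under an alternative, 1517 stayed on their side of the threshold without a called value changing sign, 54 lost the call, 43 gained it and 3 called values reversed. Values that were not called could change sign.

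Centred on 6 spike-in features, the median of all probes lay at -0.13 (NR), -0.11 (tBOOH), -0.57 (DBMIB) and -0.20 (Hexenal). On that scale LCI1 lay at -5.49, -9.05, -8.76 and -8.83 in the same order, and the pathway loci counted 1, 2, 0 and 1 higher and 10, 13, 19 and 11 lower. The block by slide and normexp on mean signals were not run, since the files used name no slide and hold no mean signal. Signals near background limit the 3 lowest groups of LCI1.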
